A study of Mus musculus with 8 samples.

Results

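Cone photoreceptor wells in which the short-wavelength opsin gene Opn1sw had more reads than the medium-wavelength opsin gene Opn1mw were examined in the retina of wild-type (WT) mice and of Spata7 mutant mice, labelled KO. A well is 1 nanowell of an ICELL8 chip, chosen by imaging to hold a single cell or nucleus. It was taken as a cone well when at least 3 of the cone genes Opn1sw, Opn1mw, Arr3, Gnat2 and Pde6h were detected, their levels in CPM (reads scaled to a common total per well) summed to at least 5000, and Apoe, an abundant gene of Müller glia, stayed below 15000 CPM. Of 3747 wells, 470 passed these gates. Opn1sw led in 239 of them, or 6.38% of all wells, and Opn1mw was level with it or led in the other 231. By age (1, 3 and 6 months), the Opn1sw-led wells numbered 50, 12 and 14 for WT and 58, 67 and 38 for KO. The mice are labelled male throughout, the WT are C57BL6/J, and the KO carry the Spata7 mutant allele. Each genotype and age is 1 library from retina, and chromatin was profiled in 2 further libraries, from WT of 7 months and KO of 6 months. The labels do not say how many mice were pooled into it, so ages stand in for replicates below, and p-values measure only the spread between these libraries.

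Mouse cones sense short wavelengths through Opn1sw and medium wavelengths through Opn1mw, and many of them, above all in the ventral retina, hold both pigments in one cell. Light on either pigment activates the cone transducin Gnat2, which relieves the cone phosphodiesterase Pde6c of the block by its inhibitory subunit Pde6h. The cone arrestin Arr3 ends the signal. Spata7 is a protein of the photoreceptor connecting cilium, through which outer segment proteins pass, and its loss leads to photoreceptor degeneration.

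The promoters of the opsin genes are shown because these genes sorted the wells and both promoters lay under accessible-chromatin peaks, described last. They are the 250 bases before the RefSeq transcription start on GRCm38.p6, 5′ to 3′ on the gene's own strand, at chr6:29380514-29380763 for Opn1sw on the minus strand and chrX:74127216-74127465 for Opn1mw on the plus strand. Capitals mark TAATC, a core bound by photoreceptor homeodomain factors such as CRX, and AGGTCA, a core bound by nuclear receptors, searched on both strands.
Opn1sw: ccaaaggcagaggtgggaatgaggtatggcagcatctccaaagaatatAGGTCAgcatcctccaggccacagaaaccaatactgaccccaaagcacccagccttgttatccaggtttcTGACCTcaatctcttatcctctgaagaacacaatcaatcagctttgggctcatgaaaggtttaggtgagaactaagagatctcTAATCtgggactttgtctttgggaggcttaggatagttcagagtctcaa
Opn1mw: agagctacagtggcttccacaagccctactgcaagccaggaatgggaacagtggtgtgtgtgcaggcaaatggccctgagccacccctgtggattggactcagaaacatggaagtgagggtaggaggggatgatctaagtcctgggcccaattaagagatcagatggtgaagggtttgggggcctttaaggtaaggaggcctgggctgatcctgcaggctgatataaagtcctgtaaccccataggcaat
The Opn1sw window held 3 matches, TAATC at 49 bases and AGGTCA at 202 and, on the other strand, 132 bases before the start. The Opn1mw window held 0 matches to these letters. Among 32851 RefSeq promoter windows of the same length, 19.8% held TAATC and 14.02% held AGGTCA, so a match alone is common.

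The libraries differed in depth, and 1 of them did not match its label. Deposited reads ranged from 12356586 in WT at 3 months to 182310499 in WT at 1 month. The median Opn1sw-led well held 254990 reads in WT at 1 month, 74066 and 36062.5 in WT at 3 and 6 months, and 29894, 90343 and 151029 in KO at 1, 3 and 6 months. In the library labelled WT 1 month, 401 Xist reads lay in 16 of the 50 Opn1sw-led wells, and 4 genes of the Y chromosome (Ddx3y, Eif2s3y, Kdm5d, Uty) had 0 reads in these wells and outside the gates, against the male label. Each of the other 5 libraries had reads of at least 3 of these 4 genes in its Opn1sw-led wells. Comparisons are therefore also given without the 1 month libraries or without this library. The 6 libraries shared at most 2 chip positions among Opn1sw-led wells in any pair.

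The cone label fitted the marker genes, with reads of other cells present. Arr3 was detected in 92.1% of the Opn1sw-led wells, Gnat2 in 89.5% and Pde6h in 95.8%, against 37.6%, 29.5% and 60.5% of the 3277 wells outside the gates, where the median depth was 64797 reads against 86775. These 3 genes took part in choosing the wells. Genes that did not, such as the cone transducin subunits Gnb3 and Gngt2 and the catalytic subunit Pde6c, had reads in the Opn1sw-led sum of every library. Outside the gates, too, 0 of the 20 cone phototransduction genes were at 0 in the sum of any library, so presence in a sum does not set cones apart. Summed over the 20 cone phototransduction genes outside the rule, the level ran from 14232 to 20229.5 CPM in the Opn1sw-led sums, from 12545 to 20791 CPM in the Opn1mw-led sums and from 7389 to 11159 CPM outside the gates. Rod transcripts were present as well, and 9 rod markers summed to between 23192 and 44855 CPM in the Opn1sw-led sums and between 24842 and 49698 CPM outside the gates. The 10 cone markers, 5 of them genes of the rule, summed to between 30632 and 85353 CPM and between 729 and 2702 CPM. In the Opn1sw-led sums the rod markers were above the cone markers in WT at 6 months (42214 against 41805 CPM). They were also above in KO at 1 month (44855 against 30632 CPM) and 6 months (36013 against 33173 CPM). The well with the lowest cone gene sum inside the gate had 5005 CPM and the highest outside had 4913 CPM. The highest Apoe inside was 14698 CPM, the lowest outside 16220.4 CPM, and 9 wells were lost to that gate. The smallest Opn1sw share of opsin reads inside was 50.04% and the largest share below the line was 48.2%.

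The opsins themselves chose the wells, so their levels are a description. Opn1sw in the Opn1sw-led sums stood at 45707, 31087 and 19347 CPM in WT at 1, 3 and 6 months and at 13696, 31547 and 13113 CPM in KO. Opn1mw in the same sums stood at 9672, 9995 and 2569 CPM in WT and at 2769, 2754 and 1369.6 CPM in KO. Both genotypes covered a wide range and overlapped for Opn1sw, whereas the WT libraries of 1 and 3 months held the highest Opn1mw. Outside the gates Opn1sw stood between 78.8 and 515 CPM and Opn1mw between 44.7 and 336 CPM. Opn1sw was nevertheless read in 60.6% of those wells and Opn1mw in 44.0%, so a few reads of an opsin did not set a cone apart.

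Co-detection of both opsins was common in these wells. Opn1mw had no read in 53 of the 239 Opn1sw-led wells (22.2%), and Opn1sw had at least 10 times the reads of Opn1mw in 117 (49.0%). The wells with no Opn1mw numbered 0 of 50, 5 of 12 and 4 of 14 in WT at 1, 3 and 6 months and 14 of 58, 19 of 67 and 11 of 38 in KO. When every well was thinned to 5000 reads, with 2 shallower Opn1sw-led wells left out, Opn1mw was at 0 in 2 of 50 Opn1sw-led wells of the WT 1 month library (4%), and in 35.7% to 43.9% of the wells of the other 5. At full depth, 14% of the Opn1sw-led wells of that library were past the ratio of 10, against 50.0% to 63.2% in the others. The split was sharper on the other side, where 175 of 231 Opn1mw-led wells (75.8%) had at least 10 times as many Opn1mw as Opn1sw reads.

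**Figure D1:**
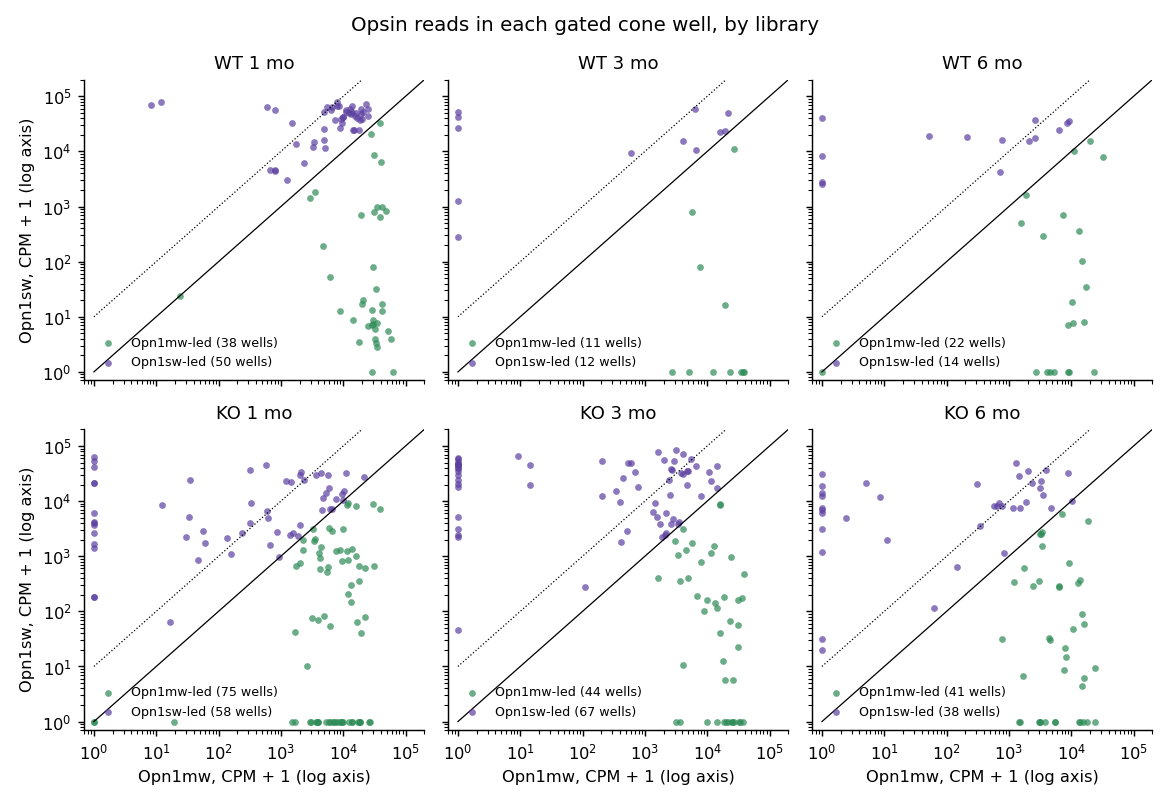
Opn1sw against Opn1mw in each gated cone well, in CPM plus 1 on log axes, with 1 panel per library. The solid line marks equal reads, the dotted line 10 times more Opn1sw than Opn1mw, and points on the left edge have no Opn1mw read; the WT 1 month panel has none there among its 50 Opn1sw-led wells.

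Whether Spata7 loss changed the balance of the opsin classes was asked of the share of gated wells that Opn1sw led. In WT the share was 56.8% (95% exact Clopper-Pearson interval 45.8% to 67.3%, counting error only) at 1 month, 52.2% (30.6% to 73.2%) at 3 months and 38.9% (23.1% to 56.5%) at 6 months. In KO it was 43.6% (35.0% to 52.5%), 60.4% (50.6% to 69.5%) and 48.1% (36.7% to 59.6%). The KO share lay 13.2 percentage points below WT at 1 month and 8.19 and 9.21 points above it at 3 and 6 months. The mean difference was 1.40 points, with p = 1 in a two-sided exact permutation test over swaps of WT and KO inside each age, whose smallest possible p was 0.25. No outcome of this test could pass 0.05, so it says nothing on whether the share differed. The sign of the mean depended on the setting, since it fell below 0 in 5 of 8 alternatives, at -1.98 with a cone gate of 10000 CPM, -2.95 with Apoe below 3000 CPM, -0.929 in thinned wells, -2.00 without 3 months and -2.51 without 6 months. Without the 1 month pair, which holds the library that went against its label, it was 8.70 points. Among wells in which one opsin had at least 10 times the reads of the other, the KO share was higher at all 3 ages, by 21.3, 12.7 and 10.3 points, a mean of 14.8 points with the smallest p the exact permutation test allows, 0.25. The largest of these differences, at 1 month, set 33 of 83 KO wells against 7 of 38 wells of the WT library that went against its label.

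**Figure D2:**
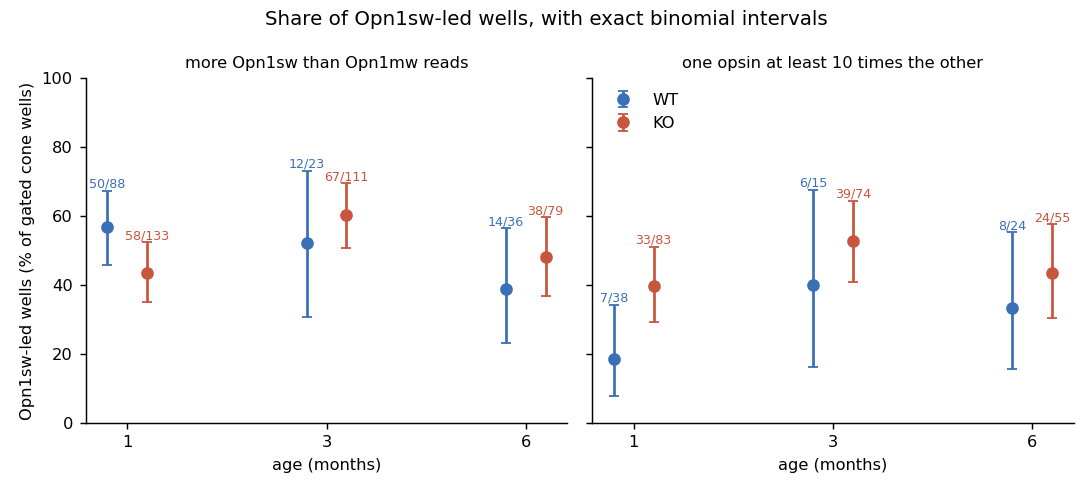
Percent of gated cone wells led by Opn1sw, by age in months, in WT (blue) and KO (red), for all gated wells (left) and for wells with a 10-fold opsin ratio (right). Points are single libraries, bars are 95% exact binomial intervals and fractions give wells; the intervals of WT and KO overlap at every age in the left panel, where the KO point is below WT at 1 month only.

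The Opn1sw-led and Opn1mw-led wells of the same library were then compared gene by gene, outside the 6 genes of the rule, to see what else separated them. The gene Ccdc136 was higher in the Opn1sw-led wells. It encodes a coiled-coil protein and lies next to Opn1sw. Its neighbour on the other side of Opn1sw, Calu, which encodes a calcium-binding protein of the secretory pathway, had a larger fitted difference that did not pass. Levels of single genes here and below are CPM of reads summed over wells, with the 6 genes of the rule left out of the total, while levels of those 6 genes and sums over marker or gene lists are CPM of all reads. By edgeR's quasi-likelihood test on these sums, with library as a factor and Benjamini-Hochberg adjustment, 1 of 8370 genes passed an adjusted p (false discovery rate) of 0.05, or 0.0119%, and it was higher in the Opn1sw-led wells. Unadjusted p was under 0.05 for 123 genes (1.47%). The median over all genes was a log2 difference of -0.06.

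Ccdc136 stood at 772 CPM in Opn1sw-led against 89.6 CPM in Opn1mw-led wells of WT at 1 month, at 615 against 74.4 CPM at 3 months and at 1282 against 309.6 CPM at 6 months. In KO it stood at 349 against 90.1, at 684 against 131 and at 469.8 against 152 CPM. It was higher in 6 of 6 libraries, and all 6 Opn1sw-led values lay above all 6 Opn1mw-led values. The fitted log2 difference was 2.35 (SE 0.32, adjusted p = 0.0313 by edgeR). It had reads in 166 of 239 Opn1sw-led wells (69.5%), in 28.1% of the Opn1mw-led wells and in 26.2% of the wells outside the gates. At 5000 reads per well the shares were 55.7% and 16.7%. The call did not hold without the 1 month libraries (log2 difference 2.28, adjusted p = 0.726), without the 3 month (2.14, 0.101) or 6 month libraries (2.61, 0.4996), without the WT 1 month library alone (2.21, 0.293), or with Apoe held below 3000 CPM (2.33, 0.0991), while the difference stayed above 0 in all 13 alternatives.

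Calu stood at 916, 1079 and 767 CPM in the Opn1sw-led wells of WT at 1, 3 and 6 months, against 64.7, 29.2 and 128 CPM in the Opn1mw-led wells. In KO it stood at 349, 893 and 249 against 79.5, 56.05 and 98.7 CPM. The classes did not overlap in this gene either, and its fitted log2 difference was 3.14 (SE 0.50, adjusted p = 0.0870 by edgeR). It passed 0.05 in 7 of 13 alternatives, and without the WT 1 month library its difference was 2.99 (adjusted p = 0.757 by edgeR). Calu was read in 67.8% of the Opn1sw-led wells, 19.05% of the Opn1mw-led wells and 14.4% of the wells outside the gates, and at 5000 reads per well in 54.4% and 10.96% of the wells of each class.

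Tex28, a gene beside Opn1mw, had the opposite pattern. It stood at 118, 81.3 and 191 CPM in the Opn1sw-led wells of WT at 1, 3 and 6 months, against 617, 373 and 305 CPM in the Opn1mw-led wells. In KO it stood at 173, 61.9 and 24.2 against 273, 331 and 159 CPM. It was lower in 6 of 6 libraries, with some overlap between libraries, and its fitted log2 difference of -1.86 (SE 0.44) did not pass (adjusted p = 0.9996 by edgeR). Reads of Tex28 were found in 20.5% of the Opn1sw-led and 51.9% of the Opn1mw-led wells but in 1.68% of the wells outside the gates.

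These 3 genes stood out of the list by their position, so other genes within 100000 bases of each opsin were read after their values were seen. In RefSeq on GRCm38.p6, Calu (chromosome 6, 29348106 to 29376675, plus strand) runs toward Opn1sw (29376671 to 29380513, minus strand), and their ends overlap by 5 bases. Ccdc136 (29396574 to 29426995, plus strand) starts 16061 bases from the Opn1sw start and runs away from it. Tex28 (chromosome X, 74150909 to 74167838, minus strand) ends 152 bases from the end of Opn1mw (74127466 to 74150756, plus strand). The libraries capture 3′ ends, and whether counting used strand is not given in the sources used here, so reads of Calu and of Opn1sw, or of Tex28 and of Opn1mw, cannot be told apart at these ends. The other tested neighbour of Opn1sw, Atp6v1f, a proton pump subunit gene 87270 bases from its start, had a log2 difference of -0.10 (SE 0.30). Beside Opn1mw, Flna had a difference of 2.20 (SE 2.85), and the pseudogene Gm6758, which lies inside the Opn1mw gene, -6.17 (SE 1.81, adjusted p = 0.9996 by edgeR).

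Because the opsin reads sorted the wells, ratios of the neighbours to them are a description only. For each 100 Opn1sw reads, the Opn1sw-led sums held from 1.56 to 6.38 Ccdc136 reads and from 1.84 to 3.82 Calu reads. The Opn1mw-led sums, with far fewer Opn1sw reads by the rule, held from 3.08 to 30.5 and from 2.23 to 19.8, and for Calu at 3 months in WT the values were 3.26 and 2.88, the latter from 20 reads of 1 well. For each 100 Opn1mw reads, Tex28 had from 0.765 to 7.15 reads in the Opn1sw-led and from 1.67 to 2.62 in the Opn1mw-led sums, where the 7.15 comes from 1 of 14 wells of WT at 6 months, as does its level of 191 CPM there.

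**Figure D3:**
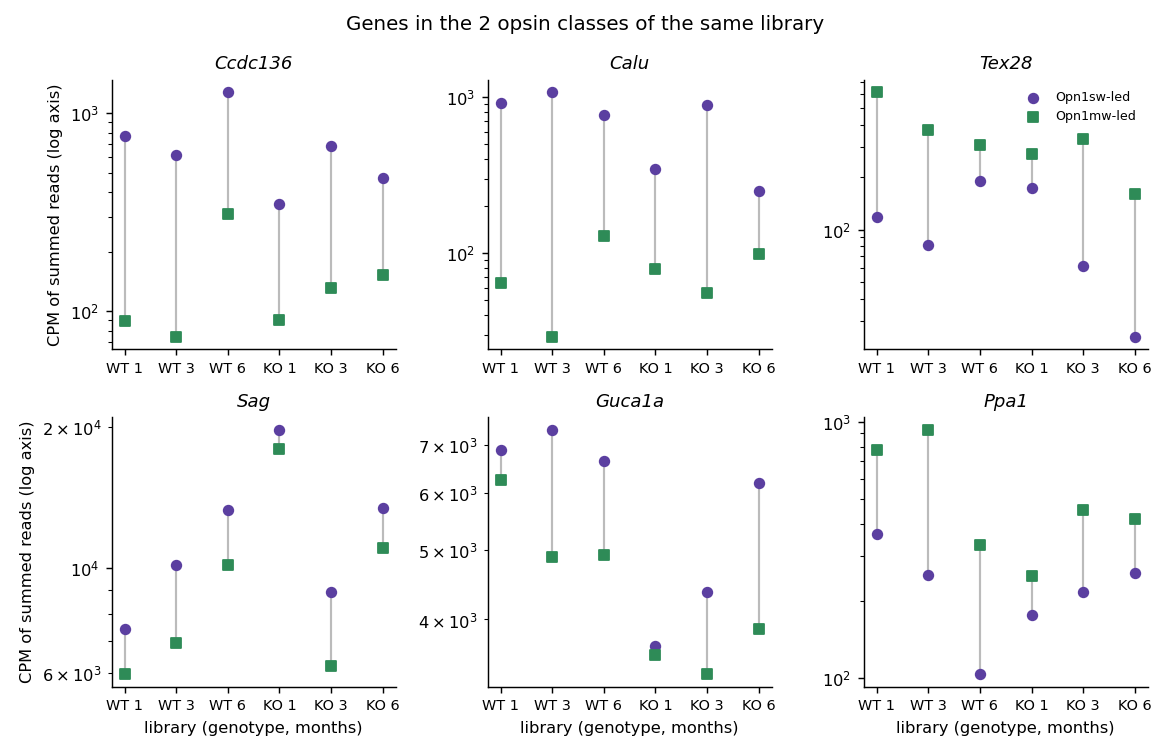
CPM of reads summed over wells (log axis, without the 6 genes of the rule) in Opn1sw-led (purple circles) and Opn1mw-led (green squares) wells of each library, joined by a line. Ccdc136 and Calu are higher in the Opn1sw-led wells of 6 of 6 libraries by wide gaps, Tex28 and Ppa1 lower, and Sag and Guca1a higher by small ones; only Ccdc136 passed the adjusted threshold.

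Beyond the neighbours no gene passed. Genes with the same sign in every library numbered 106 of 8370 higher (1.27%) and 113 lower (1.35%). Sag, the rod arrestin gene, stood at 7439, 10169 and 13327 CPM in the Opn1sw-led wells of WT against 5949.5, 6943 and 10146.5 CPM, and at 19722, 8922 and 13412 against 17965, 6188 and 11027 CPM in KO. Its log2 difference was 0.36 (SE 0.07, adjusted p = 0.488 by edgeR), and it passed 0.05 in 4 of 13 alternatives. Guca1a, which encodes a guanylate cyclase activator of photoreceptor recovery, differed by 0.37 (SE 0.10, adjusted p = 0.9996 by edgeR). The remaining named genes on the higher side, Eml5, Gm4792, Pcp2, Jmjd1c, Zfand6, Hist3h2a, Rwdd1 and Nol7, had log2 differences from 0.78 to 2.38. On the lower side, Ppa1, an inorganic pyrophosphatase gene, differed by -1.15 (SE 0.30), and Atp5g1, Kpna2, Ndufa7, Acbd6, Mpp6, Frg1, Pdc, Usp47, Metap2 and Lrit2 by -0.19 to -2.06. None of these passed (adjusted p = 0.9996 for each by edgeR).

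The gene lists gave no called member outside these, as none of their genes passed. Of 20 cone phototransduction genes, 9 lay above 0 and 11 below, with a median log2 difference of -0.07 beside -0.06 over all genes tested. Of all 8370 genes tested, 3956 lay above 0 and 4414 below. Gnb3, a cone transducin subunit gene, differed by 0.06 (SE 0.13), its partner subunit Gngt2 by -0.17 (SE 0.12), and Rcvrn, which encodes the calcium sensor recoverin, by -0.12 (SE 0.13). Of the 20 photoreceptor transcription factors, 19 were tested, 14 lay above 0 and the median was 0.19. Genes known for opsin choice were looked up for that role with their values in view. Thrb, the thyroid hormone receptor gene needed for Opn1mw, stood at 357, 108 and 413 CPM in the Opn1sw-led against 390.5, 61.2 and 413 CPM in the Opn1mw-led wells of WT. In KO it stood at 108, 160.3 and 83.0 against 159, 109 and 65.1 CPM, so the classes overlapped (log2 difference 0.16, SE 0.39). Its partner receptor gene Rxrg, which holds back Opn1sw, differed by 0.81 (SE 0.92). Synapse genes had a median of -0.03, cilium and outer segment genes -0.10, and glycolysis genes -0.17, with 8 of 20, 11 of 29 and 10 of 21 above 0, beside the 3956 of 8370 over all genes. The intervals of single low genes are wide, and a p that misses the threshold does not show equal levels.

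Among Opn1sw-led wells, KO and WT were compared with age as a factor to see how these cones differed with Spata7 loss. The labels used here give no chip or sequencing batch, and with 1 library per genotype and age, genotype and batch cannot be told apart. No gene passed the main test. The genes nearest to the threshold were higher in KO, namely S100a16, Rlbp1, a gene of Müller glia, and Trpm1, a gene of bipolar cells. edgeR's quasi-likelihood test made no call among 9080 genes (0%). Its smallest adjusted p was 0.0639, and 421 genes (4.64%) had a raw p below 0.05. On the same sums DESeq2 made 480 calls, of which 443 were on the KO side and 37 on the WT side, and limma on mean well levels made 0. The sign was the same at all 3 ages for 31.9% of genes, 26.8% higher and 5.03% lower in KO. All 3 KO libraries lay above all 3 WT libraries in 1432 genes (15.8%) and below them in 194 (2.14%). The genes named next were chosen in part for such separation, so it is given for them as a description. Over all genes tested the median fitted log2 change was 1.09 and 6488 genes (71.5%) lay above 0. Changes are read against that shift, which was 0.37 when wells were thinned to 5000 reads and 0.22 without the age term, but 1.62 without the 1 month libraries and 2.11 at the opsin ratio of 10. The WT sums at 3 and 6 months were the smallest, at 1073023 and 833090 reads, and the part of depth in the shift was not tested beyond the thinning.

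Spata7 itself was sparse. It stood at 72.8, 0 and 9.98 CPM in the Opn1sw-led sums of WT at 1, 3 and 6 months and at 0, 1.21 and 0 CPM in KO. Reads were present in 6 of 76 WT wells and 1 of 163 KO wells, and in 4.06% and 0.933% of the WT and KO wells outside the gates, and at 3 months the KO sum exceeded the WT sum on 8 reads of a single well. The gene was therefore too sparse here to check each label.

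S100a16, a gene of the S100 calcium-binding family, stood at 2.22, 8.92 and 0 CPM in WT at 1, 3 and 6 months and at 411, 269.6 and 94.6 CPM in KO. The genotypes did not overlap, and the fitted log2 change was 6.61 (SE 1.51, adjusted p = 0.0639 by edgeR). Reads were in 8 of 76 WT wells (10.5%) and 55 of 163 KO wells (33.7%), and outside the gates in 18.3% and 30.6%. Rlbp1, the retinaldehyde-binding protein gene of Müller glia, stood at 31.6, 67.4 and 18.7 CPM in WT and at 659, 649 and 261 CPM in KO, again without overlap. Its log2 change was 3.70 (SE 0.85, adjusted p = 0.0639 by edgeR). Trpm1, the cation channel gene of ON bipolar cells, stood at 52.5, 1.98 and 4.99 CPM in WT and at 435, 298 and 245 CPM in KO, a log2 change of 5.10 (SE 1.25, adjusted p = 0.139 by edgeR). S100a16 passed 0.05 in 4 of 12 alternatives, Rlbp1 in 3 and Trpm1 in 1, with the same direction in all 12. Without the 1 month libraries each had an adjusted p of 0.977 by edgeR.

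The other named genes that were higher in KO at every age had adjusted p-values from 0.332 to 0.935 by edgeR. Glul, the glutamine synthetase gene and a Müller glia marker, stood at 82.9, 469.8 and 215 CPM in WT and at 1117, 934 and 615 CPM in KO (log2 change 1.96, SE 0.64). Nupr1, a stress-induced transcriptional regulator gene, stood at 3.22, 1.98 and 0 CPM in WT and at 242, 115 and 115 CPM in KO (6.55, SE 1.96). Mt1, a metallothionein gene, stood at 4.36, 6.94 and 6.24 CPM in WT and at 173, 173 and 212 CPM in KO (4.89, SE 1.57). None of these 3 overlapped between genotypes. Mt1 was read in about as many wells of both, 38.2% in WT and 41.7% in KO, but at 5000 reads per well in 1.33% and 21.6%. Dbi, Dkk3, Wdr60, Gpr179, Meg3 and S100a1 had log2 changes from 3.22 to 6.83, and Dkk3 is also among the Müller glia markers.

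On the lower side, Osgep, which encodes a subunit of a tRNA-modifying complex, stood at 1004, 1559 and 1094 CPM in WT and at 198, 562 and 565 CPM in KO (log2 change -1.69, SE 0.54). Tulp1, which encodes a protein of photoreceptor transport, stood at 2617, 3880.2 and 4164 CPM in WT and at 1768, 2278 and 2057 CPM in KO (-0.89, SE 0.38). Pde6g, the inhibitory subunit gene of rod phosphodiesterase, stood at 9009, 7544 and 7953 CPM in WT and at 4290.5, 4917 and 6199 CPM in KO (-0.79, SE 0.31). WT and KO libraries did not overlap in these 3 genes. Guca1a stood at 6896, 7358 and 6654 CPM in WT and at 3679, 4369 and 6189 CPM in KO (-0.70, SE 0.32), and also did not overlap, although KO at 6 months came near WT. Lgr5, an R-spondin receptor gene, stood at 37.5, 310.2 and 418 CPM in WT and at 24.6, 14.5 and 1.75 CPM in KO (-4.42, SE 1.502), with reads in 12 of 50, 2 of 12 and 5 of 14 WT wells by age and 15 of 163 KO wells, so the high WT values rest on 7 wells. Klhdc8a, Nedd8, Ckmt1, Etf1, Rplp0, Ndufa10 and Calu completed this side with log2 changes from -1.20 to -2.46. Adjusted p by edgeR was between 0.935 and 0.990 for all 12.

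**Figure D4:**
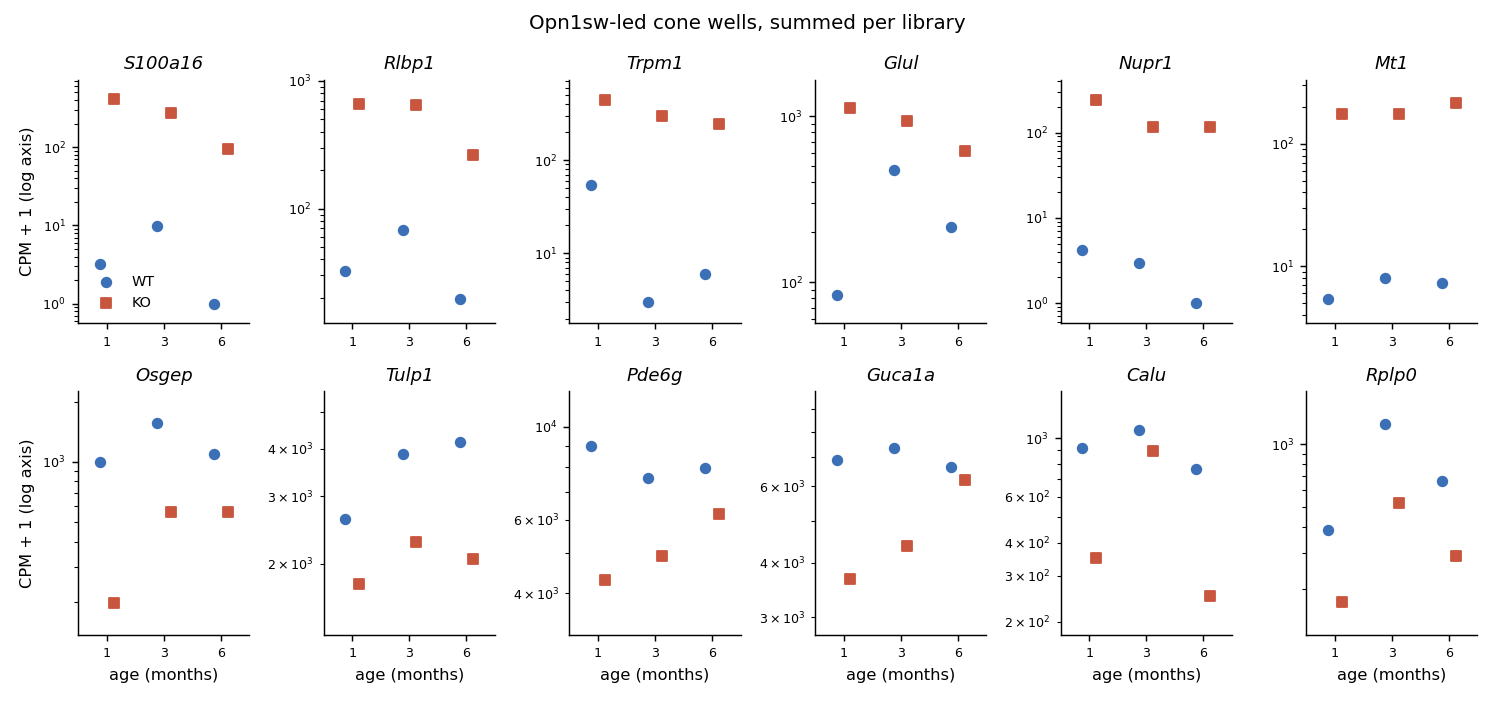
CPM plus 1 (log axis) of reads summed over Opn1sw-led wells in each WT (blue circles) and KO (red squares) library, by age in months. The top row holds 6 genes higher in KO and the bottom row 6 lower ones; for example S100a16 is at 0 to 8.92 CPM in WT and 94.6 to 411 CPM in KO, while Calu overlaps at 3 months. None passed the adjusted threshold in the main test.

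Reads of some other retinal cell types were higher in KO Opn1sw-led wells too. The summed level of 12 Müller glia markers, Apoe among them, in the Opn1sw-led wells was 1008, 1843 and 1712 CPM in WT at 1, 3 and 6 months and 8327, 7618 and 4930 CPM in KO. Kcnj10 was at 0 in all 3 WT sums, joined by Car14, Sox9 and Cd9 at 6 months, whereas 0 markers were at 0 in KO. Of the 10 markers tested, 0 passed, all lay above 0 with a median log2 change of 3.60 beside 1.09 over all genes, of which 71.5% lay above 0, and 9 had KO above WT in all libraries, as 15.8% of all genes did. Clu, the clusterin gene, stood at 535, 464 and 721 CPM in WT and at 1784, 1802 and 1088 CPM in KO (log2 change 1.32, SE 0.50, adjusted p = 0.935 by edgeR). Apoe, held below a ceiling by the rule, was at 299, 849 and 695 CPM in WT and 3514, 3304 and 2412 CPM in KO. Outside the gates the same 12 markers summed to 21400, 8265 and 6928 CPM in WT and to 13092, 21394 and 11837 CPM in KO, so WT at 1 month was low in cone wells but not elsewhere. In the Opn1mw-led wells they summed to 1401, 2366 and 5251 CPM in WT and to 6968, 5651 and 4412 CPM in KO. There KO lay below WT at 6 months.

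The 12 bipolar markers summed to 868, 535 and 220 CPM in WT and to 1928, 2261 and 1623 CPM in KO. Of 11 tested, 0 passed, all lay above 0 with a median of 3.90, and 6 had all KO libraries above WT, beside the same 15.8% and 71.5% of all genes. One of these was Isl1, a bipolar and amacrine transcription factor gene at 9.30, 0 and 1.25 CPM in WT and 158, 210.5 and 81.0 CPM in KO. Outside the gates they summed to 3147, 2929 and 2693 CPM in WT and 2670.4, 4443 and 2069.8 CPM in KO. The 8 ganglion cell markers summed to 51.7, 78.3 and 472 CPM in WT and 713, 518 and 860.3 CPM in KO. Of these, 7 of 7 tested lay above 0, beside 71.5% of all genes, with a median of 2.26. The 8 microglia markers reached at most 12.1 CPM in WT and between 50.1 and 229 CPM in KO, and were all at 0 in WT at 6 months. In the Opn1mw-led sums they stayed low in both genotypes, at most 2.78 CPM in WT and between 3.60 and 6.46 CPM in KO. Rod markers did not move this way, at 23192, 32875 and 42214 CPM in WT against 44855, 25135 and 36013 CPM in KO for 9 genes. Amacrine markers overlapped, at 92.8, 103 and 429.7 CPM in WT and 360.4, 242 and 493 CPM in KO. So did endothelial markers, at 149, 9.32 and 7.20 against 93.8, 397 and 180.3 CPM. Horizontal cell markers (5.59 to 33.6 CPM in WT, 1.01 to 42.8 CPM in KO) and retinal pigment epithelium markers (0 to 41.9 and 7.03 to 31.4 CPM) stayed low in both genotypes. The part that RNA of other cells had in the genotype differences was not tested. With Apoe held below 3000 CPM, 2 genes were called, both higher in KO. They were S100a16 (log2 change 9.24, adjusted p = 0.00814 by edgeR) and Glul (3.45, 0.0456). Rlbp1 had a log2 change of 3.50 there (adjusted p = 0.729 by edgeR) and Trpm1 of 4.91 (0.0620).

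**Figure D5:**
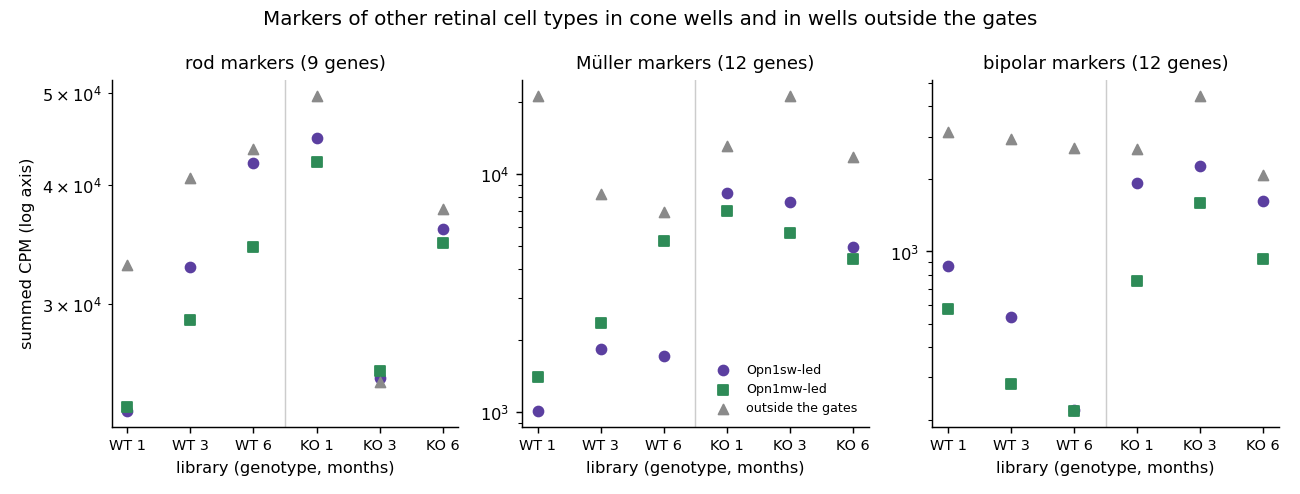
Summed CPM (log axis) of rod, Müller glia and bipolar cell markers in each library, for Opn1sw-led wells (purple circles), Opn1mw-led wells (green squares) and wells outside the gates (grey triangles); the line parts WT from KO. In Opn1sw-led wells the Müller sum is at most 1843 CPM in WT and at least 4930 CPM in KO, while rod sums overlap.

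The genes of cone function had a median below that of all genes, but so did other lists, so this was not particular to them. No cone phototransduction gene passed, and 11 of 20 lay above 0, beside 71.5% of all genes. The median log2 change of this list was 0.07 against 1.09 for all genes. It was 0.01 for ribosomal protein genes, 0.03 for synapse genes and 0.11 for rod markers. The summed level of the cone phototransduction genes was 20229.5, 17324 and 19430 CPM in WT and 14232, 15738 and 15659 CPM in KO, every KO sum below every WT sum. The order was the same in the Opn1mw-led sums (16661 to 20791 CPM in WT and 12545 to 15137 CPM in KO), while the sums outside the gates overlapped (8013 to 10313 and 7389 to 11159 CPM). More KO wells lay near the cone gate. At 10000 CPM, 46, 10 and 11 of the 50, 12 and 14 Opn1sw-led WT wells remained by age. In KO, 37, 53 and 27 of 58, 67 and 38 did. The part of this in the sums was not tested. Gngt2 stood at 3975, 2592 and 1871 CPM in WT and at 1163, 2185 and 1549 CPM in KO (log2 change -0.85, SE 0.41), and the genotypes overlapped. Gnb3 (-0.55, SE 0.39) and Rcvrn (-0.25, SE 0.42) overlapped too. Pde6c stood at 1079.6, 904 and 1111 CPM in WT and at 766, 848 and 608 CPM in KO (-0.60, SE 0.51). It and Guca1a were the members with all KO libraries below WT, or 2 of 20 beside 2.14% of all genes, and 0 members had all above, beside 15.8%. Rgs9, which encodes the protein that speeds transducin shut-off, changed by 1.67 (SE 0.71) and overlapped. Of these, Guca1a, Gngt2 and Rgs9 had an unadjusted p under 0.05.

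The remaining lists had 0 called genes each. The 20 transcription factors had a median log2 change of 0.15, with Crx, the cone-rod homeobox gene, at 543, 677 and 564 CPM in WT and 764, 519 and 621 CPM in KO, and Neurod1 at 580.4, 706 and 801 against 1006, 680.4 and 509 CPM. Both overlapped between genotypes. Of the 29 cilium and outer segment genes tested, 15 lay above 0, beside 71.5% of all genes, with a median of 0.10. Among them Prph2 (-0.15, SE 0.34) and Rom1 (-0.18, SE 0.32), the disc rim protein genes, overlapped between genotypes. The 20 synapse genes had a median of 0.03, with Syt1, synaptotagmin, at -0.43 (SE 0.43) and Snap25 at 0.06 (SE 0.45).

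In the glycolysis list 9 of 22 genes lay above 0 and 13 below, beside 71.5% of all genes above 0, with a median of -0.20. Its 23 genes summed to 23039, 15916 and 18368 CPM in WT and to 14831, 13447 and 13606 CPM in KO, so that every KO sum lay below every WT sum. The order was the same in the Opn1mw-led sums (16677 to 23401 CPM in WT and 14949.5 to 15343 CPM in KO) and outside the gates (16955 to 23145 and 16114 to 16805 CPM). Aldoa, aldolase A, stood at 7272, 3414 and 5486 CPM in WT and 3745, 3158 and 3369 CPM in KO (log2 change -0.70, SE 0.34, adjusted p = 0.990 by edgeR). Eno1, enolase, stood at 2936, 2637 and 2225 against 1777, 1541 and 1560.2 CPM and did not overlap (-0.78, SE 0.40). Of the chromatin regulators, 34 of 41 lay above 0, beside the same 71.5% of all genes, and their median of 1.31 was close to the 1.09 over all genes. Kmt2a, a histone methyltransferase gene, changed by 0.79 (SE 0.72), and Chd4, a remodeller gene singled out after its values were seen, stood at 23.9, 3.96 and 121 CPM in WT and 266, 266 and 178 CPM in KO (3.15, SE 1.32, adjusted p = 0.935 by edgeR). Of 30 stress genes 16 were abundant enough to test, 13 lay above 0 and the median was 1.14, beside the same 71.5% and 1.09 over all genes. In 3 of the 16, Nupr1, Mt1 and Fos, all KO libraries lay above WT, a share near the 15.8% of all genes. Hspa5, the gene of the chaperone BiP, overlapped (-0.30, SE 0.47). Ribosomal protein genes had a median of 0.01.

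Whether the KO change differed between Opn1sw-led and Opn1mw-led wells was tested as an interaction. Among 11016 genes edgeR made no call (0%), and 324 genes (2.94%) had a raw p below 0.05. DESeq2 made 132 calls. The genes named by smallest p all had an adjusted p of 1 by edgeR. Mrpl42, a mitochondrial ribosomal protein gene, stood at 363, 249 and 41.2 CPM in WT and 408, 342 and 360.4 CPM in KO Opn1sw-led wells, and at 812, 1123 and 506 against 119, 529.7 and 305 CPM in Opn1mw-led wells (difference of log2 changes 2.72, SE 0.80). Crip2 and Acsl6 leaned the same way (6.07, SE 1.79, and 4.30, SE 1.29), and Sec11c, Cngb1 and Sccpdh the other way (-4.11, -1.38 and -3.27). S100a16, Rlbp1 and Trpm1 were higher in KO at 1 and 3 months in both opsin classes. At 6 months in Opn1mw-led wells, KO over WT on the log2 scale was 0.40 for S100a16, 3.25 for Trpm1 and -0.07 for Rlbp1.

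Accessible chromatin was measured separately by single-cell ATAC-seq of nuclei from retina, as 1 peak list for WT at 7 months and 1 for KO at 6 months. The lists cover all retinal cells, and they hold 56797 and 91130 peaks, so genotype, age and list length cannot be told apart. In both lists 1 promoter peak covered all 250 bases of the Opn1sw window shown above, including its 3 motif matches. The peak at the Opn1mw promoter covered 201 bases of its window in WT and 111 in KO. Opn1sw had 2 annotated peaks in WT and 4 in KO, the 2 further ones upstream of its start at listed distances of -1982 and -7552 bases, and Opn1mw had 4 in each. Of the 20 cone phototransduction genes, 19 had a promoter peak in WT and 20 in KO. Cngb3, a subunit gene of the cone cation channel, was the one without it in WT. Ccdc136 and Calu had 1 promoter peak in each list, and Tex28 had 0 peaks of any type in either. Spata7 had 1 promoter peak in WT and 0 in KO, where 3 distal peaks were listed.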

How the data were processed

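Gene counts per well were deposited as whole-number read counts, and per the submitters' processing notes CASAVA, TopHat2, HTSeq and Seurat were used with mm10 (GRCm38). Peak lists, whose distance to a gene is the deposited value used, came from Cell Ranger ATAC 1.1.0 per the same notes. Whether counting used strand or collapsed molecular tags is not given in the sources used here. Symbols matched 42461 of 43628 gene IDs.

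Reads of gated wells were summed per library and opsin class, without the 6 genes of the rule, and tested with edgeR 4.0.16 (TMM, filterByExpr, quasi-likelihood F test, Benjamini-Hochberg, false discovery rate 0.05), first tested on simulated counts, where it recovered nearly all large changes at a low spread between libraries and none at the spread fitted here. DESeq2 1.42.0 and limma 3.58.1 (log2 of mean well CPM plus 1) were alternatives. No doublet caller was run. A pseudocount of 1 CPM was used for log2 ratios by age. Intervals cover counting error only.

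Named genes were up to 12 called genes a side with 1 sign in every age or library, filled by smallest p among genes detected in at least 25% of the wells of the higher group, plus the most abundant list members. Some genes, and 1 further gate on wells that used one of them, are not reported here. Members and lists were chosen with earlier results of these data known.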

Additional observations from a re-analysis of the deposited data

Results flagged for a closer look

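For 4 of the genes named in the text, the KO libraries lay on one side of WT at all 3 ages in Opn1sw-led wells and on the other side at all 3 ages in Opn1mw-led wells. Over all 11016 genes tested, 159 (1.44%) had this pattern. The difference between the classes was tested for each of the 4 as an interaction and passed in none (adjusted p = 1 by edgeR). It was 2.72 for Mrpl42, with KO above WT in Opn1sw-led wells, and -4.11 for Sec11c, -3.27 for Sccpdh and -0.60 for Gm4792, with KO below WT in Opn1sw-led wells.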

How the results depend on the processing

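With 0 genes called by edgeR for KO against WT in Opn1sw-led wells, DESeq2 called 480, keeping the genes of the rule 4, thinned wells 2 and Apoe below 3000 CPM 2, and leaving out an age gave 0 to 3. For Opn1sw-led against Opn1mw-led wells, where 1 gene was called, DESeq2 called 39, no filter on low counts 4, keeping the genes of the rule 4, limma 3, a cone gate at 10000 CPM 3, an opsin ratio of at least 10 gave 3, thinned wells 2, Apoe below 3000 CPM 0, and leaving out an age 0. Leaving out the WT 1 month library, an alternative chosen after seeing the data, gave 0. For the interaction DESeq2 called 132, and leaving out an age gave 0 to 3. Among the genes named by a call or by smallest p, Pcp2 reversed to -0.14 at the opsin ratio of at least 10, and no other changed sign. Genes named only from a list or by position were not followed across settings. The mean KO minus WT share of Opn1sw-led wells, 1.40 points, turned to -1.98 at the 10000 CPM gate, -2.95 at the Apoe gate of 3000 and -0.929 in thinned wells, and ran from -2.51 to 8.70 without 1 age. The causes were not tested. Age and library were factors in the fits, and with 1 library per genotype and age there were no replicate numbers to pair. With 2 residual degrees of freedom and as few as 12 wells in a library, even large changes could be missed at the spread fitted between libraries.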
